A study of Homo sapiens with 6 samples.

Results

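Box C/D and box H/ACA small nucleolar ribonucleoproteins (snoRNPs) are particles that modify ribosomal RNA in the nucleolus, and the 10 genes described here encode their core proteins and a pair of nucleolar scaffold proteins. The genes were taken by symbol from the 61806 genes of the deposited table: FBL, NOP56, NOP58 and SNU13 of the box C/D particle, DKC1, NHP2, NOP10 and GAR1 of the box H/ACA particle, and the scaffold proteins NOLC1 and NPM1. Each symbol matched 1 gene, and all 10 passed the filter on low counts in both groups.

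Messenger RNA was measured in 293T cells, a human embryonic kidney line, given a plasmid labelled GFP-812 in 3 libraries and a plasmid labelled GFP in the other 3. Both plasmids were delivered with the lipid reagent Lipo2000, so GFP, the green fluorescent protein used as a tag, and the transfection itself are shared by the groups. The series title names truncated NEK1 and the making of ribosomal RNA, and the labels give no meaning for the number in the plasmid name. Separate cultures for the 3 replicates are not stated, so a p-value here reflects variation among libraries of 1 cell line that may be technical.

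As background, a box C/D snoRNA guides ribose methylation of ribosomal RNA by base pairing, with FBL as the methyltransferase, and a box H/ACA snoRNA guides conversion of uridine to pseudouridine, with DKC1 as the synthase. Many human snoRNAs are cut from introns, and the genes of snoRNP proteins are themselves among their hosts. NPM1 is an abundant protein of the outer, granular region of the nucleolus, and NOLC1 binds snoRNPs and is found in both the nucleolus and Cajal bodies.

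The snoRNAs carried by these genes show what the particles are built on, and they are printed here because the protein genes and the RNAs that the proteins bind share the same loci. The table holds 11 snoRNA genes inside members on the same strand, 5 in NOP56, 4 in NOP58 and 2 in DKC1. All 11 lie between exons of a principal host transcript, in introns. The sequences below come from the GENCODE 29 transcripts, are written as DNA on the given strand from 5′ to 3′, and have in capitals TGATGA (box C) within the first 20 bases and CTGA (box D) within the last 20 bases, or ACA placed 3 bases from the end.
SNORD11, in NOP58, hg38 chr2:202293051-202293134, plus strand: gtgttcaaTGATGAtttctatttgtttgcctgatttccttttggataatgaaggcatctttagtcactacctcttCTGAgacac
SNORD11B, in NOP58, hg38 chr2:202291332-202291421, plus strand: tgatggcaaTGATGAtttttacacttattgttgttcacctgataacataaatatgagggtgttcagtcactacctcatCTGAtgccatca
SNORD57, in NOP56, hg38 chr20:2656939-2657010, plus strand: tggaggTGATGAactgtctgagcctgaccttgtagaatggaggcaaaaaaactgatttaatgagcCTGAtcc
SNORD110, in NOP56, hg38 chr20:2654212-2654286, plus strand: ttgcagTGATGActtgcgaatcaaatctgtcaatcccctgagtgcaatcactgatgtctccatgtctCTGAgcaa
SNORA51, in NOP56, hg38 chr20:2655067-2655198, plus strand: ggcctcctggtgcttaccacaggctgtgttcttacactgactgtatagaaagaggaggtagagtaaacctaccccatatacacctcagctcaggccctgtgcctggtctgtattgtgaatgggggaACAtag
SNORA36A, in DKC1, hg38 chrX:154768528-154768659, plus strand: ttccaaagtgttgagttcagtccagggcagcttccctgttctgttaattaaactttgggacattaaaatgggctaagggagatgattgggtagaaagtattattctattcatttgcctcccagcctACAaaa

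Among GENCODE 29 snoRNAs, read on their own strand alone, TGATGA stood in the first 20 bases of 69.1% of 278 named SNORD, CTGA stood in the last 20 bases of 95.7% of them, and ACANNN closed 76.2% of 147 named SNORA. A match to these letters is a description. SNORD56, SNORD70, SNORD70B, SNORD86 and SNORA56, the other snoRNAs in these introns, lacked TGATGA or the closing ACANNN. NOP58 was the host of SNORD11, SNORD11B, SNORD70 and SNORD70B.

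The snoRNAs themselves held few counts in these libraries, which were made from poly(A) RNA. The 11 genes held 103 counts over the 6 libraries, 97 of them in the 4 snoRNAs of NOP58, 6 in those of NOP56 and 0 in those of DKC1. SNORD11 held 7, 8 and 9 counts in the GFP-812 libraries, against 10, 10 and 11 counts in the GFP libraries. SNORD70 held 4, 3 and 6 counts in the GFP-812 libraries, against 2, 5 and 2 counts in the GFP libraries. At these counts, reads of the host's unspliced RNA and reads of the snoRNA cannot be told apart, and no comparison of the snoRNAs was made.

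The libraries held 14255148 to 17613814 counts. NEK1, the gene of the series title, checks the labels: its level was 562.73, 518.33 and 493.72 FPKM in GFP-812 libraries, against 3.82, 3.99 and 3.91 FPKM in GFP libraries. That is a 136-fold difference in edgeR (95% interval 127 to 145; adjusted p = 4.5e-70). FPKM is the count scaled by exonic length and by the total count of the library. All 8 markers of embryonic kidney epithelium were tested, with 0 past the threshold. They summed to 154.4 to 160.5 FPKM in GFP-812 cells and 149.7 to 161.5 FPKM in GFP cells. Most of that was VIM, at 119.9 FPKM in GFP-812 cells and 119.1 FPKM in GFP cells. EPCAM (1.03 and 0.9267 FPKM), CDH1 (0.6767 and 0.6433) and PAX2 (0.62 and 0.3967) were low in both groups. Of the markers of mature kidney, UMOD of tubule cells was at 0 counts in every library, but others held reads. LRP2 held 410, 427 and 423 counts in GFP-812 libraries, against 320, 400 and 371 counts in GFP libraries (edgeR adjusted p = 0.116). AQP1 held 23, 18 and 29 counts in GFP-812 libraries, against 44, 14 and 18 counts in GFP libraries. The 11 markers of blood, endothelium, fibroblasts and neurons summed to 96.11 to 107.1 FPKM in GFP-812 cells and 81.27 to 92.94 FPKM in GFP cells, almost all of it from the neurofilament genes NEFM and NEFL, with HBB of red blood cells at 0. Of 16834 genes tested by edgeR's quasi-likelihood test with Benjamini-Hochberg adjustment, 647 passed an adjusted p of 0.05, which is 3.84%, with 198 higher and 449 lower in GFP-812 cells (45.2% higher with upper-quartile scaling, 30.6% with the scaling used here). Leaving out a GFP-812 library gave 475 calls (replicate 1), 209 (replicate 2) and 292 (replicate 3). Leaving out a GFP library gave 263 (replicate 1), 414 (replicate 2) and 1317, or 7.63% of the genes then tested (replicate 3).

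None of the snoRNP and scaffold genes passed the test: 0 of 10 had an adjusted p under 0.05 in edgeR, against 3.84% of all genes tested (1.18% higher and 2.67% lower). The 4 genes nearest to the threshold were NHP2 of the H/ACA particle at 1.11-fold, FBL, which methylates ribosomal RNA, at 1.09-fold, NPM1 at 1.06-fold and NOP58 at 0.916-fold of the level in GFP cells. These 4 were at an unadjusted p under 0.05, 3 of them higher and NOP58 lower, in a table where 16.1% of all genes reached that level, 7.24% higher and 8.9% lower. DESeq2 called 2 of the 10 and 481 genes in all, limma-voom 3 of the 10 and 669 in all, and limma on log2(FPKM + 1) 0 of the 10 and 3 in all.

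The median log2 fold change of GFP-812 over GFP was 0.0083 for the 10 genes and 0.0069 for all genes tested, and the median absolute value was 0.0434 for the 10 genes and 0.104 for all genes tested. All genes tested include genes with few counts, such as NPM2, with an SE of 0.521. NOP10, with the fewest counts of the 10 genes, had an SE of 0.0759. The absolute medians are thus not matched for counting depth, and no difference is read from them. Of the fitted values of the 10 genes, 6 were above 0 and 4 below, and 6 were within 0.05 of 0. All 95% intervals lay between -0.2065 and 0.2463 on the log2 scale, or 0.867-fold and 1.19-fold. In bulk samples, fewer cells of a type and less RNA per cell cannot be told apart.

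**Figure D1:**
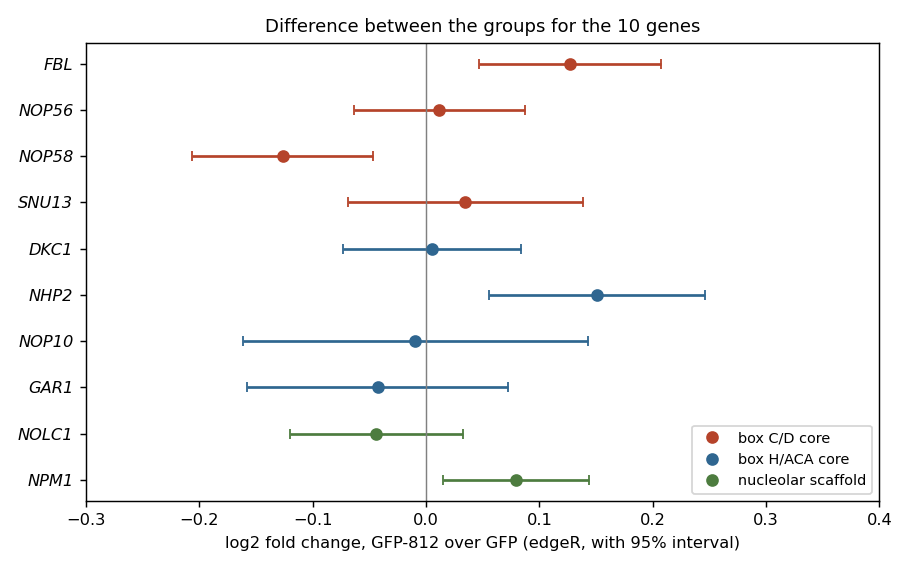
Log2 fold change of GFP-812 over GFP on the horizontal axis (edgeR, point with 95% interval) for each of the 10 genes, coloured by particle. The intervals of FBL, NHP2 and NPM1 lie above 0 and that of NOP58 below 0 before adjustment over all genes, and the other 6 span 0.

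The libraries of the groups did not overlap for 3 genes, against 20.5% of all genes tested (9.75% higher and 10.8% lower). These were NHP2 and NPM1, each higher in all 3 GFP-812 libraries than in any GFP library, and NOP58, lower in all 3. The count was 3 or 4 whichever library was left out, when 28.8% to 34.9% of all genes did not overlap. GFP replicate 3 was the highest of the GFP libraries for 6 of the 10 genes, among them FBL, NHP2 and NPM1. Without GFP replicate 3, 4 of the 10 genes passed the test, FBL, NHP2 and NPM1 as higher and NOP58 as lower, when 7.63% of all genes did; without GFP replicate 2 only NOP58 passed, and without each of the other 4 libraries in turn 0 passed.

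**Figure D2:**
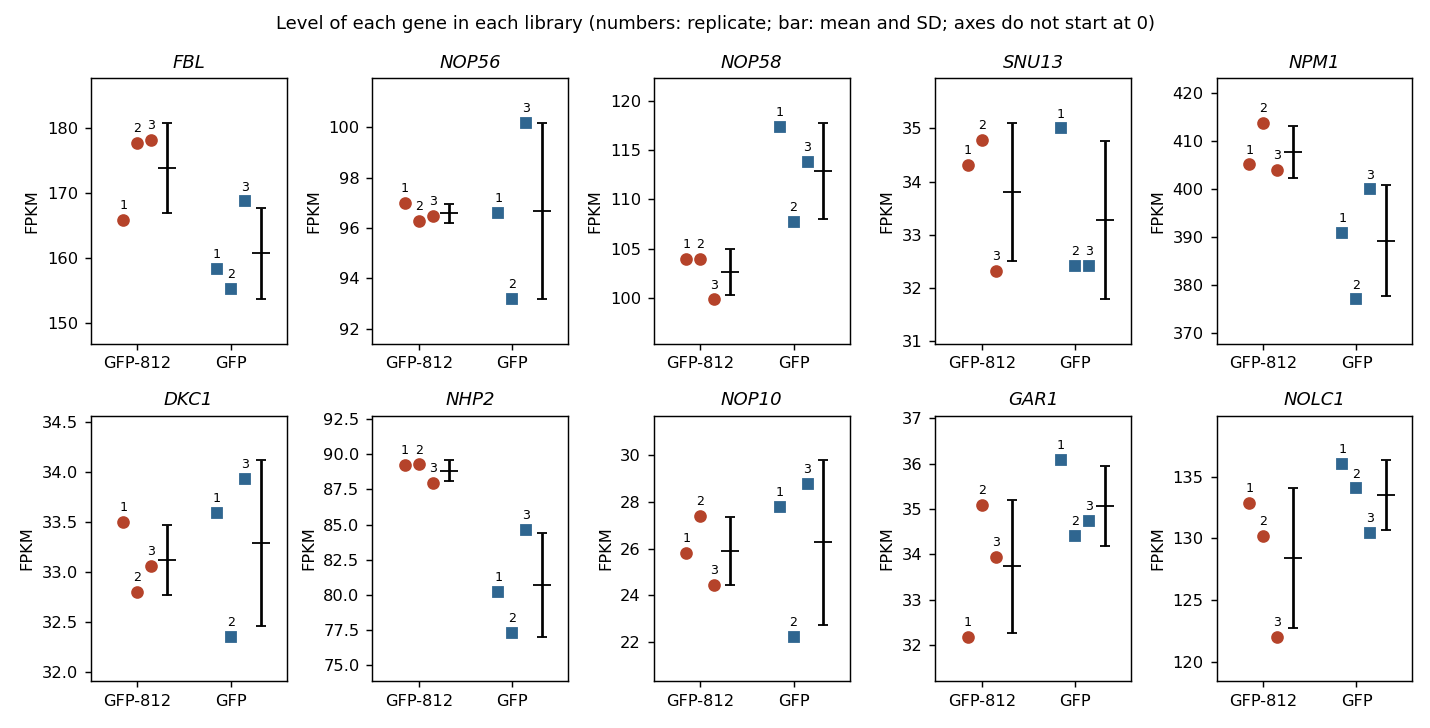
Level in FPKM (vertical axes, which do not start at 0) of each gene in the GFP-812 libraries (left) and the GFP libraries (right), numbered by replicate, with mean and SD (n = 3). For NHP2 and NPM1 the GFP-812 libraries all lie above the GFP libraries, for NOP58 all below, and for the other 7 genes the groups overlap.

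Of the box C/D core, 0 of 4 genes passed, with a median log2 fold change of 0.023. FBL (ENSG00000105202, hg38 chr19:39834458-39846379, minus strand), the methyltransferase, had 165.89, 177.69 and 178.23 FPKM in GFP-812 libraries, against 158.27, 155.23 and 168.73 FPKM in GFP libraries. GFP-812 replicates 2 and 3 lay above every GFP library, and GFP-812 replicate 1 lay below GFP replicate 3. The means were 173.9 ± 6.97 FPKM in GFP-812 cells and 160.7 ± 7.08 FPKM in GFP cells (SD, n = 3 each), and the log2 fold change was 0.13 with an SE of 0.0401 (adjusted p = 0.0586 in edgeR). With 5056 to 6712 counts per library, counting alone gives a coefficient of variation of 1.22% to 1.41%, and the libraries varied by 3.88% within GFP-812 and 4.47% within GFP.

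NOP58 and NOP56 are paired paralogous proteins that form the backbone of the particle. NOP58 (ENSG00000055044, hg38 chr2:202265736-202303661, plus strand) had 103.94, 103.91 and 99.85 FPKM in GFP-812 libraries, against 117.3, 107.69 and 113.82 FPKM in GFP libraries. Every GFP-812 library was below every GFP library, and GFP replicate 2 came nearest to them. The means were 102.6 ± 2.35 FPKM in GFP-812 cells and 112.9 ± 4.87 FPKM in GFP cells (SD, n = 3 each), at 0.916-fold (log2 fold change -0.13, SE 0.0399, edgeR adjusted p = 0.0574).

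NOP56 (ENSG00000101361, hg38 chr20:2652593-2658393, plus strand) had 96.99, 96.28 and 96.46 FPKM in GFP-812 libraries, against 96.61, 93.18 and 100.18 FPKM in GFP libraries. The GFP-812 libraries lay within the range of the GFP libraries. The log2 fold change was 0.01 (95% interval -0.0639 to 0.0869, edgeR adjusted p = 0.924), and its sign turned under 5 alternatives. The GFP-812 libraries were close to each other, at a coefficient of variation of 0.514%, against 3.83% within GFP.

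SNU13 (ENSG00000100138, hg38 chr22:41673933-41690504, minus strand) binds the kink-turn formed by boxes C and D and also the U4 spliceosomal RNA. It had 34.32, 34.78 and 32.33 FPKM in GFP-812 libraries, against 35, 32.42 and 32.42 FPKM in GFP libraries. The groups overlapped, at a log2 fold change of 0.03 (95% interval -0.0693 to 0.1383, edgeR adjusted p = 0.806).

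Whether the counting used strand is not given in the sources used here, so it is not known how reads in an overlap with the other strand were counted. The values of the overlapping genes below do not measure how many reads of a member were affected. RMND5B overlaps NHP2 by 1106 bases on the other strand and stood at a log2 fold change of -0.03 (edgeR adjusted p = 0.892), and C22orf46 overlaps SNU13 by 1628 bases and stood at -0.01 (edgeR adjusted p = 0.963). An antisense gene over 1493 bases of NOP58 held 15, 21 and 23 counts in GFP-812 libraries, against 15, 27 and 23 counts in GFP libraries, while NOP58 held 4851 to 6200 counts per library. On the same strand as SNU13, a pseudogene of LLPH spans 381 bases within it. That pseudogene held 14, 44 and 13 counts in GFP-812 libraries, against 21, 22 and 13 counts in GFP libraries, while SNU13 held 1432 to 1667 counts per library. No gene of the table overlaps FBL, NOP10, GAR1, NOLC1 or NPM1.

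A ratio of a pair of members within a library needs no scaling between libraries. In all 9 pairs were computed, picked after the values were seen, so the ratios are descriptions. The ratio of FBL to NOP58, per kilobase, was 1.596, 1.71 and 1.785 in GFP-812 libraries, against 1.349, 1.441 and 1.482 in GFP libraries. The ratio of NOP56 to NOP58 was 0.9332, 0.9266 and 0.966 in GFP-812 libraries, against 0.8237, 0.8652 and 0.8802 in GFP libraries. The ratio of SNU13 to NOP58 was 0.3302, 0.3347 and 0.3238 in GFP-812 libraries, against 0.2984, 0.3011 and 0.2848 in GFP libraries. Each of the 3 other box C/D core genes stood higher relative to NOP58 in all GFP-812 libraries than in any GFP library, with log2 differences of 0.2523, 0.1377 and 0.1614, and the ratio of FBL to NOP56 did so too, at 0.1146. The first 3 of these share NOP58, which was itself lower in every GFP-812 library, so they partly restate that order, and no test is given.

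In the box H/ACA core, NHP2 stood higher relative to DKC1 in GFP-812 libraries. The ratio of NHP2 to DKC1 was 2.665, 2.722 and 2.661 in GFP-812 libraries, against 2.387, 2.39 and 2.494 in GFP libraries, a log2 difference of 0.1465 with no overlap. NHP2 was itself higher in every GFP-812 library, so its ratios to DKC1 and to GAR1 largely restate that order, and no test is given. The ratios of NOP10 to DKC1 and of GAR1 to DKC1 overlapped between the groups, with log2 differences of -0.0061 and -0.0497.

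**Figure D3:**
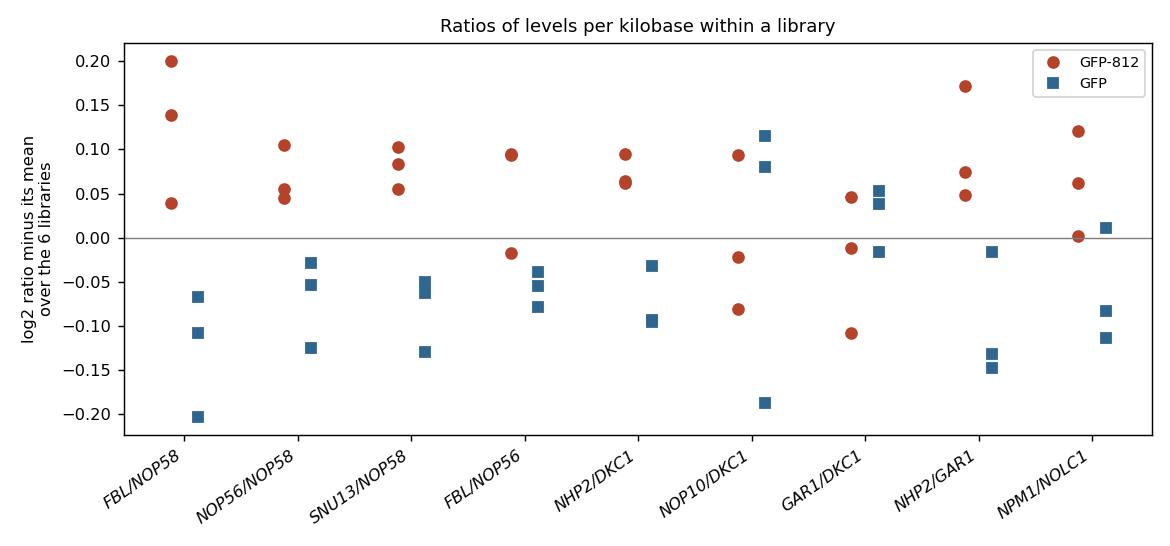
Ratios of levels per kilobase within a library, as log2 minus the mean over the 6 libraries (vertical axis), for 9 pairs of genes, with GFP-812 libraries as circles and GFP libraries as squares. For FBL, NOP56 and SNU13 over NOP58, FBL over NOP56, NHP2 over DKC1 and NHP2 over GAR1 the GFP-812 libraries all lie above the GFP libraries. The pairs were picked after the values were seen.

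Of the box H/ACA core, 0 of 4 genes passed, with a median log2 fold change of -0.0022. NHP2 (ENSG00000145912, hg38 chr5:178149463-178153894, minus strand), a core protein related to SNU13, had 89.26, 89.28 and 87.97 FPKM in GFP-812 libraries, against 80.2, 77.31 and 84.62 FPKM in GFP libraries. All 3 GFP-812 libraries lay above the highest GFP library, which was replicate 3. The means were 88.84 ± 0.751 FPKM in GFP-812 cells and 80.71 ± 3.68 FPKM in GFP cells (SD, n = 3 each), at 1.11-fold (log2 fold change 0.15, SE 0.0476, edgeR adjusted p = 0.0577). It held 1836 to 2287 counts per library.

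DKC1 (ENSG00000130826, hg38 chrX:154762742-154777689, plus strand), which encodes the pseudouridine synthase dyskerin, had 33.5, 32.8 and 33.06 FPKM in GFP-812 libraries, against 33.59, 32.35 and 33.93 FPKM in GFP libraries. The GFP-812 libraries lay inside the range of the GFP libraries. The log2 fold change was 0.01 (95% interval -0.0735 to 0.0839, edgeR adjusted p = 0.969), and its sign turned under 5 alternatives.

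GAR1 and NOP10 are small proteins, GAR1 acting in binding and release of the substrate RNA and NOP10 holding DKC1 to its partners. GAR1 (ENSG00000109534, hg38 chr4:109815510-109824740, plus strand) had 32.18, 35.08 and 33.94 FPKM in GFP-812 libraries, against 36.08, 34.4 and 34.74 FPKM in GFP libraries. Only GFP-812 replicate 2 lay among the GFP libraries, and the log2 fold change was -0.04 (95% interval -0.1576 to 0.0721, edgeR adjusted p = 0.775).

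NOP10 (ENSG00000182117, hg38 chr15:34339159-34343180, minus strand) had 25.82, 27.38 and 24.46 FPKM in GFP-812 libraries, against 27.79, 22.24 and 28.76 FPKM in GFP libraries. It held the fewest counts of the 10, 564 to 728 per library, and varied most, by 13.7% within GFP with GFP replicate 2 lowest, where counting alone gives 3.71% to 4.21%. The log2 fold change was -0.01 (95% interval -0.1617 to 0.1426, edgeR adjusted p = 0.971), and its sign turned under 5 alternatives, to 0.0593 without GFP replicate 3.

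Of the scaffold genes, 0 of 2 passed. NPM1 (ENSG00000181163, hg38 chr5:171387116-171411810, plus strand) had 405.18, 413.88 and 404.03 FPKM in GFP-812 libraries, against 390.9, 377.09 and 399.98 FPKM in GFP libraries. All GFP-812 libraries lay above all GFP libraries, and GFP replicate 3 came nearest to them. The means were 407.7 ± 5.39 FPKM in GFP-812 cells and 389.3 ± 11.5 FPKM in GFP cells (SD, n = 3 each), at 1.06-fold (log2 fold change 0.08, SE 0.0322, edgeR adjusted p = 0.175). With 48003 to 59146 counts per library NPM1 is the most precisely counted of the 10, and quantile normalization of the FPKM turned its sign (-0.05609, limma adjusted p = 0.233).

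NOLC1 (ENSG00000166197, hg38 chr10:102152176-102163871, plus strand), also known as Nopp140, had 132.88, 130.22 and 122.06 FPKM in GFP-812 libraries, against 136.04, 134.04 and 130.43 FPKM in GFP libraries. GFP-812 replicates 2 and 3 lay below every GFP library, and GFP-812 replicate 1 lay among them. The log2 fold change was -0.04 (95% interval -0.1204 to 0.0324, edgeR adjusted p = 0.617).

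NPM1 has many processed copies in the genome, and its value is uncertain to the extent that reads match both it and a copy. The table holds 49 pseudogenes named after NPM1, of which 16 had any count, and 1 of them, NPM1P27 (hg38 chr5:93682838-93683667), held 93% of their counts. NPM1P27 had 1349, 1519 and 1651 counts in GFP-812 libraries, against 1438, 1319 and 1468 counts in GFP libraries. Its level was 114.7 ± 2.21 FPKM in GFP-812 cells and 105.4 ± 5.91 FPKM in GFP cells (SD, n = 3 each), and the log2 fold change was 0.13 with an SE of 0.0528 (adjusted p = 0.154 in edgeR). All NPM1 pseudogenes together held 3.02, 3.02 and 2.99 counts per 100 counts of NPM1 in GFP-812 libraries, against 2.92, 2.8 and 3.02 in GFP libraries. How reads that match several places were counted is not given in the sources used here, so these shares do not measure that uncertainty. Of 6 pseudogenes of the other members, 3 had any count.

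The paralogs were not called either. NPM3, a histone chaperone of the same family, had 54.46 ± 2.97 FPKM in GFP-812 cells and 53.63 ± 5.53 FPKM in GFP cells (SD, n = 3 each; log2 fold change 0.04, edgeR adjusted p = 0.846). NPM2, known for its role in the egg, was near its limit of measurement at 0.2433 ± 0.185 FPKM in GFP-812 cells and 0.34 ± 0.0755 FPKM in GFP cells (SD, n = 3 each; edgeR adjusted p = 0.753). FBLL1, a paralog of FBL, held 5, 3 and 2 counts in GFP-812 libraries, against 4, 0 and 2 counts in GFP libraries, and was not tested.

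FBL, NOP58 and NHP2 had edgeR adjusted p-values of 0.0586, 0.0574 and 0.0577, and some alternatives moved them across the threshold. Of 19 alternatives FBL passed in 7, NOP58 in 6 and NHP2 in 5. Others moved them away: FBL to 0.598 in limma after quantile normalization, NOP58 to 0.347 in edgeR without GFP replicate 1. NHP2 went to 0.227 in edgeR without GFP replicate 2. FBL passed with upper-quartile scaling (log2 fold change 0.1422, adjusted p = 0.0294), with a minimum mean FPKM of 1 (0.0371), among protein-coding genes alone (0.0372), in DESeq2 (0.0376), in limma-voom (0.0417), with the replicate number as a block in edgeR (0.0451) and without GFP replicate 3 (0.00169). NHP2 passed with upper-quartile scaling (adjusted p = 0.032), with the minimum FPKM (0.0363), among protein-coding genes (0.0372), with the block (0.0467) and without GFP replicate 3 (0.00724). NOP58 passed on library totals alone (log2 fold change -0.1392, adjusted p = 0.0248), in DESeq2 (0.0301), in limma-voom (0.044), with the block (0.0488), without GFP replicate 2 (0.00979) and without GFP replicate 3 (0.0306).

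Over 19 alternatives FBL stayed between 0.03905 and 0.1624, NHP2 between 0.1166 and 0.1852 and NOP58 between -0.1753 and -0.0951 on the log2 scale. The lowest value of FBL, 0.03905, came from quantile normalization. NPM1 passed in limma-voom (adjusted p = 0.0324) and without GFP replicate 3 (0.0109), and its values lay between -0.05609 and 0.0981. SNU13, GAR1 and NOLC1 kept their sign and did not pass under any of the 19.

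**Figure D4:**
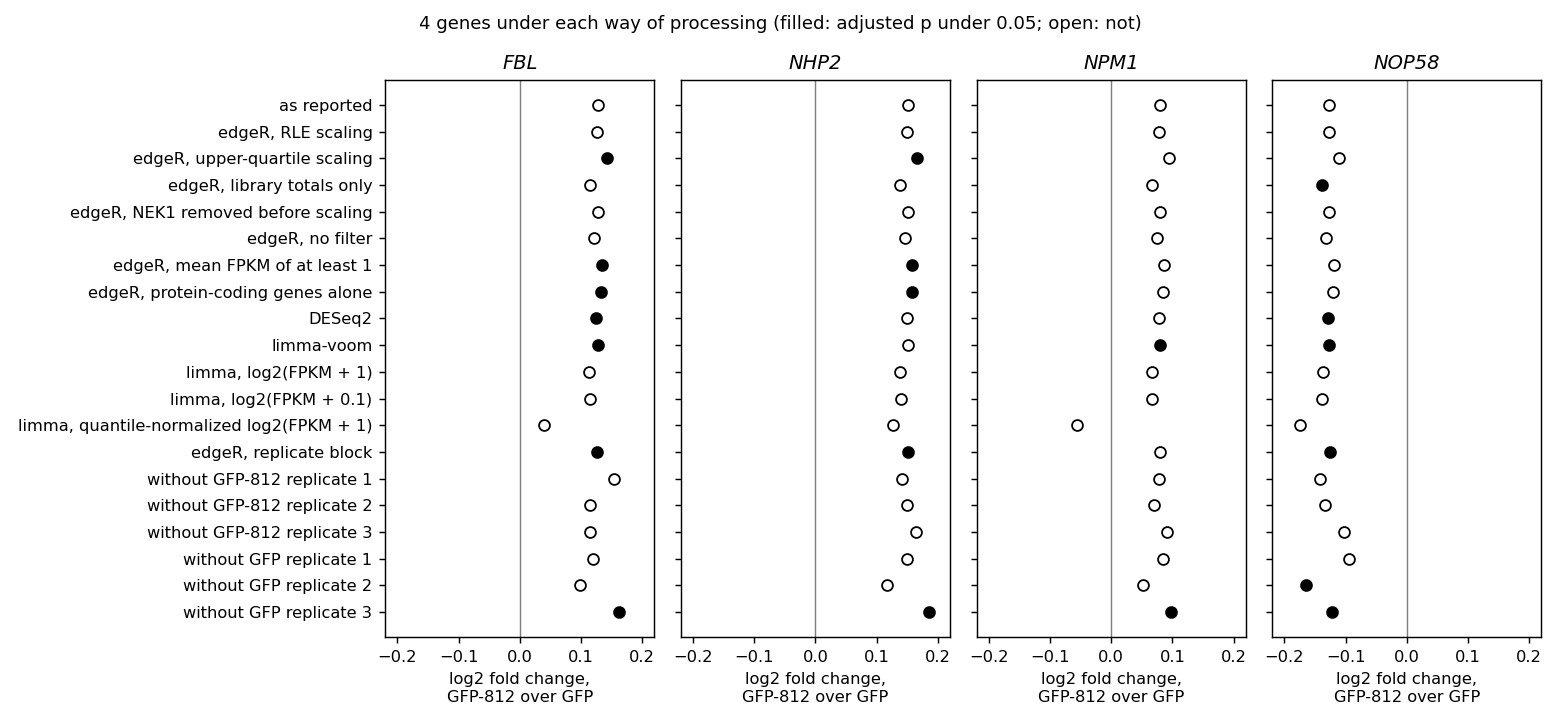
Log2 fold change of GFP-812 over GFP (horizontal axes) for FBL, NHP2, NPM1 and NOP58 under each way of processing (vertical axis), filled where the adjusted p is under 0.05 and open where it is not. FBL and NHP2 lie above 0 and NOP58 below 0 in every line, and NPM1 lies below 0 in the line for quantile normalization.

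The 10 genes spanned a wide range of levels, which were compared per length. NPM1 was highest at 398.5 FPKM over the 6 libraries (range 377.1 to 413.9), and then came FBL at 167.3 FPKM (155.2 to 178.2), NOLC1 at 130.9 FPKM (122.1 to 136), NOP58 at 107.8 FPKM (99.85 to 117.3), NOP56 at 96.62 FPKM (93.18 to 100.2) and NHP2 at 84.77 FPKM (77.31 to 89.28). GAR1 at 34.4 FPKM (32.18 to 36.08), SNU13 at 33.55 FPKM (32.33 to 35) and DKC1 at 33.2 FPKM (32.35 to 33.93) did not differ beyond their spread, and NOP10 was lowest at 26.07 FPKM (22.24 to 28.76). The ranges of NOP58 and NOP56 overlapped, but NOP58 was above NOP56 within each of the 6 libraries. The order depends on the length used, since the table divides by all exonic bases of a gene. That size is 8311 bases for NPM1 and 9198 bases for DKC1, where the principal coding transcript in GENCODE 29 has 1758 and 2577 bases.

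Scaled in the same way but by the length of the principal coding transcript, NPM1 stood at 1884 and FBL at 308.4, still first and second. NOP56 (199.3) was then above NOP58 (172.4), NHP2 (144.6) and NOLC1 (132.2), which was sixth. DKC1 (118.5) and SNU13 (112) came next, and GAR1 (55.2) was last, below NOP10 (74.18). NHP2 and NOLC1 overlapped, with NHP2 above in 4 of 6 libraries. The ranges of DKC1 and SNU13 overlapped too, with DKC1 above in 6 of 6, and those of the other neighbours in this order did not. Within the H/ACA core the level of DKC1 was thus below that of NHP2 under both lengths and above that of GAR1 only with the coding transcript.

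Together the genes took 0.5714%, 0.5801% and 0.5662% of all counts in GFP-812 libraries, against 0.5634%, 0.5421% and 0.5717% in GFP libraries. GFP replicate 2 was lowest, and GFP replicate 3 lay among the GFP-812 libraries. NPM1 alone held 58.93%, 59.3% and 59.31% of the members' counts in GFP-812 libraries, against 57.66%, 57.81% and 58.15% in GFP libraries. Summed FPKM of the box C/D core was 401.1, 412.7 and 406.9 in GFP-812 libraries, against 407.2, 388.5 and 415.1 in GFP libraries, and overlapped. Summed FPKM of the box H/ACA core was 180.8, 184.5 and 179.4 in GFP-812 libraries, against 177.7, 166.3 and 182.1 in GFP libraries, and overlapped as well.

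Genes that build, carry or neighbour these particles were looked at in 4 lists. Of 10 snoRNP assembly factors 1 fell and 0 rose, where 2.67% of all genes tested fell and 1.18% rose, with a median log2 fold change of -0.0228. The fallen gene was ZNHIT6, which acts early in assembly of the box C/D particle, at 16.87, 15.59 and 15.84 FPKM in GFP-812 libraries, against 19.24, 17.82 and 18.04 FPKM in GFP libraries. All GFP-812 libraries lay below all GFP libraries, at a log2 fold change of -0.18 with an SE of 0.0505 (adjusted p = 0.0303 in edgeR). The call was lost without GFP-812 replicate 2 (adjusted p = 0.242), GFP-812 replicate 3 (0.179) or GFP replicate 1 (0.254) and with upper-quartile scaling (0.0517), and in limma on log2(FPKM + 1) (0.158).

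Of 9 partners in the Cajal body, at the RNA cap and in telomerase, 0 rose and 0 fell, 2 were lower at an unadjusted p under 0.05, as were 8.9% of all genes tested, and the median was -0.0631. COIL, which encodes the Cajal body scaffold coilin, had 12.98 ± 0.333 FPKM in GFP-812 cells and 15.21 ± 0.55 FPKM in GFP cells (SD, n = 3 each; log2 fold change -0.22, SE 0.0677, edgeR adjusted p = 0.0567). COIL passed without GFP replicate 3 (adjusted p = 0.0244), on library totals alone (0.0368) and with the replicate block (0.0483). TGS1, the enzyme that adds methyl groups to the cap of small RNAs, stood at -0.13 (edgeR adjusted p = 0.201).

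Of 10 splicing partners of SNU13, from the U4/U6 particle of the spliceosome and from outside that particle, 0 rose and 0 fell. At an unadjusted p under 0.05 in edgeR 5 were lower, as were 8.9% of all genes tested, and the median was -0.0783. PRPF3 had 17.21 ± 0.2 FPKM in GFP-812 cells and 19.07 ± 1.12 FPKM in GFP cells (SD, n = 3 each; log2 fold change -0.13, edgeR adjusted p = 0.144). PRPF8, the large protein at the spliceosome's centre, had 45.54 ± 0.923 FPKM in GFP-812 cells and 49.22 ± 3.08 FPKM in GFP cells (SD, n = 3 each; log2 fold change -0.10, edgeR adjusted p = 0.153), and passed without GFP replicate 3 (-0.1427, adjusted p = 0.00258).

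Of 20 other nucleolar proteins 1 fell and 0 rose, where 2.67% of all genes tested fell and 1.18% rose, with a median of -0.0186. The fallen gene was MKI67, which coats chromosomes in mitosis and marks dividing cells, at 31.97, 31.29 and 31.68 FPKM in GFP-812 libraries, against 36.46, 36.81 and 33.42 FPKM in GFP libraries. The groups did not overlap, and GFP replicate 3 came nearest to the GFP-812 libraries. Its log2 fold change was -0.16 with an SE of 0.039 (adjusted p = 0.0112 in edgeR), and its call was lost without GFP-812 replicate 2 (adjusted p = 0.142), GFP-812 replicate 3 (0.0881) or GFP replicate 1 (0.114), and in limma on log2(FPKM + 1) (0.162). NCL, the abundant nucleolar protein nucleolin, chosen here after its value was seen, had 260.3 ± 2.2 FPKM in GFP-812 cells and 253.7 ± 6.37 FPKM in GFP cells (SD, n = 3 each; log2 fold change 0.05, edgeR adjusted p = 0.468). Without GFP replicate 3 the fallen genes numbered 1, 1, 1 and 2 in the 4 lists, in the order given. In that fit 810 of 17259 genes tested fell and 507 rose, 7.63% in both directions together.

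**Figure D5:**
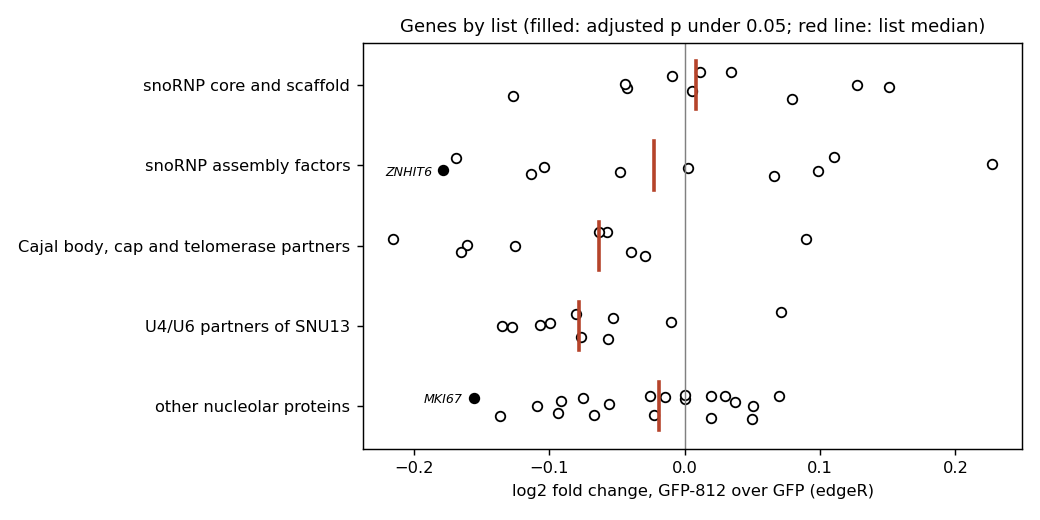
Log2 fold change of GFP-812 over GFP (edgeR, horizontal axis) of every gene in the snoRNP core and scaffold and in 4 lists of related genes (vertical axis), filled where the adjusted p is under 0.05, with the list median as a red line. ZNHIT6 and MKI67 are the filled points, and the 10 core and scaffold genes lie on both sides of 0.

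The genes whose pattern over the 6 libraries was most like the mean of the 10 were DNAJC8, KIAA1191, HMGN1, SELENOF and ENSA, of 2106 protein-coding genes with a mean FPKM of at least 20. Likeness was the root mean square difference of centred log2 values over the 6 libraries, 0.0059 for DNAJC8 and 0.014 for ENSA. The closest of 2106 genes over 6 values are close by selection, so the likeness is a description. The mean is taken over genes with fitted differences on both sides of 0, so it need not describe any single member. The mean profile of the 10 was 0.0096, 0.0384 and -0.0183 in GFP-812 libraries, against 0.0252, -0.0769 and 0.022 in GFP libraries, so that GFP replicate 2 was the lowest point of the pattern. DNAJC8 had 134.21, 135.5 and 131.61 FPKM in GFP-812 libraries, against 134.89, 128.02 and 136.36 FPKM in GFP libraries.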

How the data were processed

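Poly(A) RNA of 6 libraries was sequenced, 3 for each plasmid. The submitters' processing notes name HISAT2 2.2.1, HTSeq 0.6.1, cutadapt 1.9.1, FastQC 0.10.1 and the build hg38. Strand setting and annotation release were not given in the sources used here. The authors deposited 1 table with raw counts per gene and FPKM for each library. Dividing counts by exonic size and library total returned the deposited FPKM for 100% of values within 0.0051, so these carry no further scaling.

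From there, edgeR 4.0.16 in R 4.3.3 (filterByExpr, TMM, quasi-likelihood test with group as the single term) tested 16834 genes over all libraries, 2-sided, with Benjamini-Hochberg adjustment and a threshold of 0.05. Standard errors come from the F statistic. Fold changes refer to scaled counts. The fit was tested on simulated data. Alternatives were DESeq2 1.42.0, limma-voom and limma 3.58.1 on log2(FPKM + 1), on log2(FPKM + 0.1) and after quantile normalization, other scalings and filters, NEK1 removed, a block for the replicate number, protein-coding genes alone, and each library left out. Overlap without each library and levels per coding transcript were added after the data were seen. Replicates of a group differed by more than sampling noise.

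The members and lists were chosen with earlier results of these data known. Named are the 10 members, NEK1, snoRNAs, pseudogenes and paralogs of the members, the genes called in each list or else the 2 with the smallest p, and the 5 genes most alike in pattern. GENCODE 29 holds 58254 of the 61806 gene IDs and gave transcripts and snoRNA sequences. Same-numbered libraries were not paired in the labels, and their deviations from the group means correlated at 0.032, -0.01 and 0.006 over genes. The summed level of the mature kidney markers is not reported here.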

Additional observations from a re-analysis of the deposited data

How the results depend on the processing

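Over 10 genes and 19 alternatives, 154 values kept the sign and the side of the threshold, 20 passed where the value reported does not, and 16 turned the sign, at an adjusted p of 0.233 or above. Against the 0 genes reported, 2 of the 10 passed with upper-quartile scaling, when 619 of 16834 genes tested passed in all. On library totals alone 1 passed (736 of 16834 in all), and with the replicate block 3 passed (777 of 16834). At a minimum mean FPKM of 1, 2 passed (648 of 12984), as did 2 among protein-coding genes alone (667 of 13466). DESeq2 called 2 (481 in all), limma-voom 3 (669 in all), and the fits with 1 library left out 0 to 4. The libraries share a number and no known source, so the block is an alternative and not a pairing. Over all genes, 647 calls became 3, 2 and 2 in limma on log2(FPKM + 1), on log2(FPKM + 0.1) and after quantile normalization, and 209 to 1317 with 1 library left out. NOP10 turned to 0.005767 with upper-quartile scaling and 0.003582 after quantile normalization, and lay between -0.1201 and 0.0593 with 1 library left out. NOP56 turned to -0.001183 on library totals, -0.0005713 and -0.0005709 in limma at the pseudocounts of 1 and 0.1, and -0.02999 after quantile normalization, and lay between -0.0185 and 0.03695 with 1 library left out. DKC1 turned to -0.007426 on library totals and to -0.006937 and -0.007118 in limma, and lay between -0.01923 and 0.01799 with 1 library left out. NPM1 turned to -0.05609 after quantile normalization. With 1 library left out NPM3 lay between -0.02094 and 0.1233 and NPM2 between -0.7943 and 0.04295. For each of these the cause was not tested. The median of the box H/ACA genes changed sign between edgeR scalings, and those of the box C/D genes (-0.00106) and scaffold genes (-0.0811) did so after quantile normalization. The box C/D median also did so without GFP replicate 2 (-0.00347). No direction is given for the groups. Counts were fewest for NOP10, GAR1 and SNU13, and the snoRNAs cannot be compared at all. NOP10 varied by 13.7% within GFP, beyond the 3.71% to 4.21% from counting alone.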

Other observations

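Among markers of other cell types, 2 neurofilament genes, which encode structural proteins of neurons and are known to be expressed in this line, were higher in GFP-812 cells, where 1.18% of all genes tested rose. NEFM had 68.21 ± 5.15 FPKM in GFP-812 cells and 55.96 ± 3.42 FPKM in GFP cells (SD, n = 3 each; log2 fold change 0.30, SE 0.0458, edgeR adjusted p = 1.46e-05). NEFL had 33.25 ± 1.49 FPKM in GFP-812 cells and 29.77 ± 2.29 FPKM in GFP cells (SD, n = 3 each; log2 fold change 0.17, edgeR adjusted p = 0.0372). The call of NEFL was lost without GFP-812 replicate 2 (adjusted p = 0.312) and without GFP-812 replicate 3 (0.0781). It was also lost when GFP replicate 1 (0.343) or replicate 2 (0.0684) was left out, in DESeq2 (0.0547) and on library totals alone (0.0559). In limma on log2(FPKM + 1) neither passed (adjusted p = 0.139 for NEFM and 0.276 for NEFL). SNAP25, the other neuronal marker, held 9, 23 and 19 counts in GFP-812 libraries, against 23, 23 and 21 counts in GFP libraries (log2 fold change -0.36, edgeR adjusted p = 0.693).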
